A study of Arabidopsis thaliana with 12 samples.

Results

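CCL (AT3G26740), the CCR-LIKE gene of *Arabidopsis thaliana*, was followed across an array of 3439 probes hybridised with total RNA of the ecotype Columbia 0. The array held 692 probes whose annotation lists exactly 1 gene, and 1 of them, probe 2653, lists CCL. None of the 870 probes with several genes lists it. The gene was chosen by its measured values, as the firmest decrease in the psad1 mutant among single-gene probes, so its difference between genotypes is described here without a test. There were 6 wild-type (WT) samples and 6 psad1 samples, and both groups share the Columbia 0 background. The mutant is without PSI-D1, a form of the photosystem I subunit PSI-D. The sources used here give neither the allele nor the tissue, plant age, growth conditions or hour of harvest.

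CCL is known for a transcript whose abundance and stability are under the control of the circadian clock. The short-lived message is among those degraded through a sequence-specific decay pathway of plants, and its half-life changes over the day. Its product is also known as the Arabidopsis counterpart of the light-induced protein LIR1 of rice, a chloroplast protein that helps to attach leaf-type ferredoxin-NADP reductase (FNR) to the thylakoid membrane. FNR takes electrons from ferredoxin, which receives them from photosystem I at the stromal side, where PSI-D provides its docking site.

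Samples 1 and 2, samples 3 and 4, and samples 5 and 6 of a genotype resembled each other across the array. Measured from the mean of the genotype, the deviations of these partners correlated with r from 0.469 to 0.649 across probes, against −0.609 to −0.111 for other samples of the same genotype. Deviations from a mean sum to 0, so the negative values follow in part from the positive ones. The sets were also chosen with earlier results of these data known, so the contrast is a description. Partners were averaged, which left 3 set averages per genotype as replicates (n = 3). Mean intensity per sample lay between 1.05 and 1.07. With limma on set averages, 28 of 3202 tested probes passed an adjusted p of 0.05, 15 higher and 13 lower in psad1, or 11 and 17 after centring each sample on its median. Treated as 12 independent samples, 505 passed. The labels name no separate plants or cultures, and p-values therefore refer to the spread between these samples, which may be technical. The number of arrays limits the precision of every value.

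CCL had a lower intensity in every psad1 sample than in any WT sample. Its deposited intensity in WT samples 1 to 6 was 8.22, 7.39, 7.80, 7.21, 7.20 and 6.87. In psad1 samples 1 to 6 it was 5.07, 4.64, 4.61, 4.54, 4.28 and 4.27. The groups did not overlap, and the lowest WT sample was 1.36 times the highest psad1 sample. Sample 1 was the highest and sample 6 the lowest in both genotypes. All 12 values stood clear of the intensity floor, the 5th percentile of a sample's positive values, at 39.7 to 46.9 times the floor in WT and 23.6 to 31.2 times in psad1. In RNA from whole samples, fewer cells that express the gene and less CCL RNA per cell cannot be told apart.

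Over set averages, CCL measured 7.45 ± 0.387 (SD, n = 3) in WT and 4.57 ± 0.289 in psad1. The WT sets stood at 7.80, 7.51 and 7.04, and the psad1 sets at 4.86, 4.57 and 4.28. The log2 difference was −0.71 with a standard error (SE) of 0.10, which puts psad1 at 61.3% of WT. Relative to its mean the set averages varied by 5.20% in WT and 6.33% in psad1. Within sets, partners differed by 0.07 to 0.15 on the log2 scale in WT and by 0.0026 to 0.13 in psad1, while the widest gap between sets was 0.15 in WT and 0.18 in psad1. The spread of CCL between partners was close to its spread between sets in WT. The SD of CCL within genotypes, over 12 samples, was 0.09 on the log2 scale. The median SD of 595 other single-gene probes that were above the floor in every sample was 0.15, and 11.9% of them had a smaller SD than CCL. Picking the firmest decrease favours a gene with a small spread, so nothing is read from this comparison.

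**Figure D1:**
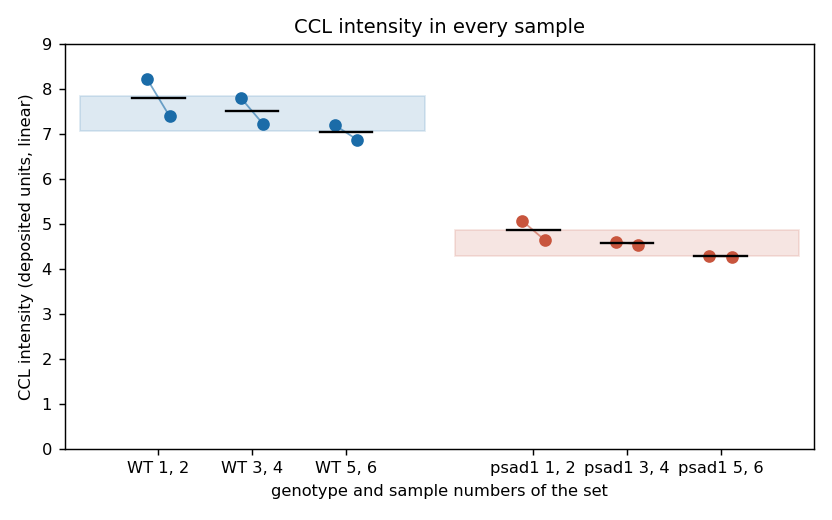
Deposited intensity of CCL (linear scale, from 0) in the 6 WT and 6 psad1 samples, grouped by sets of 2 samples. Points are samples, black bars are set averages and shaded bands are the mean ± SD of 3 set averages. The WT points lie between 6.87 and 8.22 and the psad1 points between 4.27 and 5.07.

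The deviations of CCL from its genotype means ran in parallel in WT and psad1 when samples were matched by number. With samples of the same number set against each other, CCL in psad1 was 61.7%, 62.8%, 59.0%, 62.9%, 59.5% and 62.2% of WT for numbers 1 to 6. Over all 36 pairings of a psad1 with a WT sample the ratio ran from 52.0% to 73.8%. Same-numbered deviations of CCL correlated with r = 0.905 over 6 numbers, which form 3 sets, so this is given as a description with no test. Among 3010 probes above the floor in every sample the median of this r was 0.341, and 93.1% of probes had a lower one. The labels do not say that a number marks a shared experiment, and across all probes the same-numbered samples correlated with r from 0.00805 to 0.483.

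**Figure D2:**
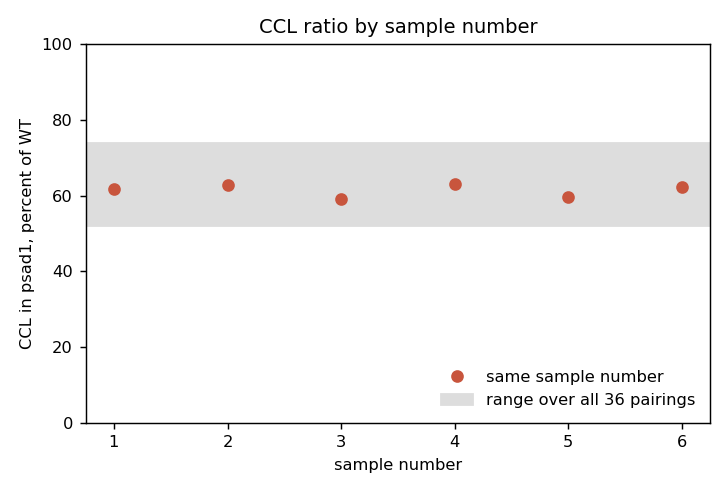
CCL in psad1 as a percentage of WT (y axis, from 0) for samples that share a number (x axis), with the grey band giving the range over all 36 pairings. The 6 points lie between 59.0% and 62.9%, inside a band from 52.0% to 73.8%.

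Sample brightness ran against CCL within psad1 and weakly with it within WT. Within psad1, the deviations of CCL and the median log2 intensity of the sample correlated with r = −0.905 over 6 samples, and within WT with r = 0.347. Over all 12 samples the value was −0.552. Centring each sample on its median left the pattern of CCL deviations close to the original (r = 0.944 over 12 samples), and so did the position correction (0.965), whereas quantile normalization moved it further (0.797). Whether brightness has a part in the CCL pattern was not tested beyond these values. The log2 difference between genotypes was −0.71 after median centring and −0.66 after quantile normalization.

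CCL was set against the other probes that list 1 gene to describe its place among them, and since this contrast chose the gene, nothing is read from that place. Of 640 tested single-gene probes, CCL had the lowest moderated t of limma (−6.80) and the next was CSLA01 (−5.02), a gene of the cellulose synthase-like family. By size alone CCL ranked 2 of 640, after AT2G11270, whose log2 difference was −0.73 with an SE of 0.23, more than that of CCL (0.10). AT5G05330 came next with −0.65. Among all 3202 tested probes CCL ranked 9 by size and 5 by t. The median log2 difference of the 640 probes was −0.02, with 5th and 95th percentiles of −0.27 and 0.34. Every psad1 sample lay below every WT sample in 4.84% of all tested probes and in 31 of the 640. Among those 31, the gap between the lowest WT and the highest psad1 sample was 0.44 on the log2 scale for CCL and 0.28 for AT4G18180, the next.

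**Figure D3:**
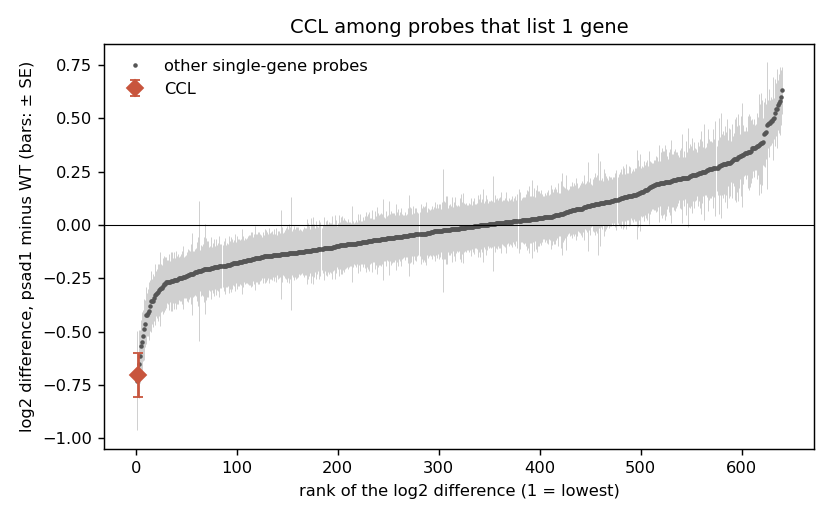
Log2 difference between psad1 and WT (y axis, bars ± SE) of the 640 tested single-gene probes in order of size (x axis). CCL, the diamond, stands at rank 2 from the low end with −0.71.

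The probes beside CCL in the array's numbering and its neighbours on the chromosome were examined for a similar difference. The 24 tested probes nearest to probe 2653 in number had log2 differences from −0.52 to 0.32 with a median of −0.05, and 15 were below 0. The lowest of them was AT4G18180, 12 tested probes away. In the 22 of these that were above the floor in every sample, r with CCL ran from −0.847 to 0.664 with a median of −0.0175. AT4G18180 had the highest r as well, 0.664, and the probe at −0.847 is not named. Subtracting a running median over 25 neighbouring probe numbers left a log2 difference of −0.64 for CCL. Of 40 genes flanking CCL on chromosome 3 in the TAIR10.1 gene table, AT3G26730 and AT3G26630 had a probe of their own. AT3G26730, the adjacent gene, had 0.742 ± 0.168 (SD, n = 3) in WT and 0.882 ± 0.157 in psad1, with an adjusted p of 0.521 by limma. AT3G26630, 12 genes away, had 2.56 ± 0.116 and 2.82 ± 0.238, with an adjusted p of 0.565.

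Genes were then ranked by how closely they followed CCL within genotypes, a measure in which the difference between WT and psad1 has no part. The deviation of each sample from its genotype's mean, on the log2 scale, was correlated with that of CCL over 12 samples for 595 single-gene probes. The points share libraries and sets, so r is a description and carries no p. Over the 595 probes r had a median of −0.163, with 5th and 95th percentiles of −0.663 and 0.468. It reached 0.7 in 7 probes (1.18%) and −0.7 or lower in 19 (3.19%). This lean towards negative r depended on the scaling and the genotype: the median was 0.0148 after median centring and 0.0164 after the position correction, and it was 0.105 in WT alone and −0.412 in psad1 alone. After median centring 10 of the 10 most alike genes had r of 0.7 or more, and 1 of the 10 most opposite had −0.7 or lower. Without centring, 1.60% of all 3009 probes above the floor in every sample reached 0.7, and 5.25% had −0.7 or lower. These shares were not taken after median centring, so the counts after centring have no background to be set against. The closest of all, probe 301 with r = 0.924, lists several genes and is not named. That probe was picked after its value was seen.

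**Figure D4:**
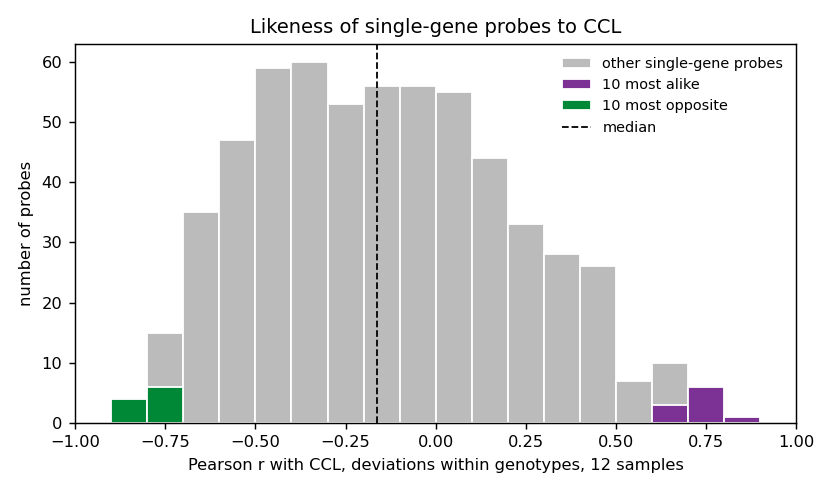
Number of single-gene probes (y axis) by Pearson r with CCL over deviations within genotypes (x axis), in bins of 0.1. The dashed line marks the median of −0.163, and the 10 most alike and 10 most opposite genes are coloured at the ends.

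AT1G49850, a gene for a RING-type zinc finger protein, followed CCL most closely, with r = 0.855 and Spearman's rho = 0.825. Its intensity ran from 1.11 to 1.42 in WT, with a median of 1.23, and from 1.04 to 1.43 in psad1, with a median of 1.15. Sample 1 was its highest and sample 6 its lowest in both genotypes, as for CCL, but unlike CCL its groups overlapped over most of their range. The likeness was 0.900 in WT alone, 0.869 in psad1 alone, 0.925 over set averages and 0.703 over differences within sets. After quantile normalization it was 0.539.

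The second most alike was AT5G47030, which encodes a subunit of the mitochondrial ATP synthase, with r = 0.783. It measured 0.193 to 0.272 in WT and 0.205 to 0.258 in psad1. Its lowest values were 1.18 to 1.19 times the floor, so none was raised to it, but they stood near it. Whether low values of this gene are compressed was not tested. AT2G04700, the third, encodes the catalytic subunit of ferredoxin-thioredoxin reductase, which passes electrons from ferredoxin to thioredoxins in the chloroplast. It had r = 0.760, a rho of 0.566, and intensities of 0.515 to 0.650 in WT (median 0.589) and 0.555 to 0.715 in psad1 (median 0.592). Sample 1 was its highest in both genotypes, and without WT sample 1 and psad1 sample 1, the samples with the widest deviations of CCL, r was 0.332.

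The other genes of the 10 most alike had r from 0.677 to 0.719. They were AT4G16490, an armadillo-repeat protein gene, AT3G56810, DAL1, AT2G41120, AT4G39760, a kelch-repeat protein gene, AT4G39690 for the cristae protein MIC60, and MAMI, annotated as membrane-associated and mannitol-induced. DAL1 is named as the probe annotation gives it. Of these 10 genes, 8 had their highest WT value in sample 1 and 6 their highest psad1 value in sample 1. None of the 10 lay within 12 probe numbers of CCL or of another. Without WT sample 1 and psad1 sample 1 their r ran from 0.311 to 0.768, and 4 of the 7 that had reached 0.7 still did.

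Opposite to CCL ran AT1G24360, a ketoacyl-ACP reductase gene of plastid fatty acid synthesis, with r = −0.845. Its intensity was 0.268 to 0.346 in WT (median 0.289) and 0.207 to 0.310 in psad1 (median 0.267), and sample 1 was its lowest in both genotypes. AT5G39980, a gene for a pentatricopeptide repeat (PPR) protein, a family that acts on organelle RNA, had r = −0.839. It ran from 0.998 in WT sample 1 to 1.505 in WT sample 5, and from 1.03 in psad1 sample 1 to 1.32 in psad1 sample 6. Its groups overlapped. Over set averages, which give 6 deviations, its r was −0.996, the most negative of the 20 genes. Over differences within sets it was −0.626. After quantile normalization it was −0.840, after the position correction −0.684 and after median centring −0.634.

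LPA19, which acts in the assembly of photosystem II, had r = −0.756, with 0.900 to 1.09 in WT and 0.813 to 0.957 in psad1. Its r was −0.376 after median centring, −0.438 after the position correction and −0.556 after quantile normalization. AT1G74070, a gene for a cyclophilin-type isomerase, had r = −0.797 and its lowest value, 0.943, in psad1 sample 1. The remaining opposite genes were AT5G01960, AT1G75260, AT5G48130, AT2G40980, AT4G30150 and AT1G79080, another PPR gene, with r from −0.813 to −0.772. Of the 10, 9 had their lowest WT value in sample 1 and 8 their lowest psad1 value there. Without those 2 samples r ran from −0.857 to −0.464.

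**Figure D5:**
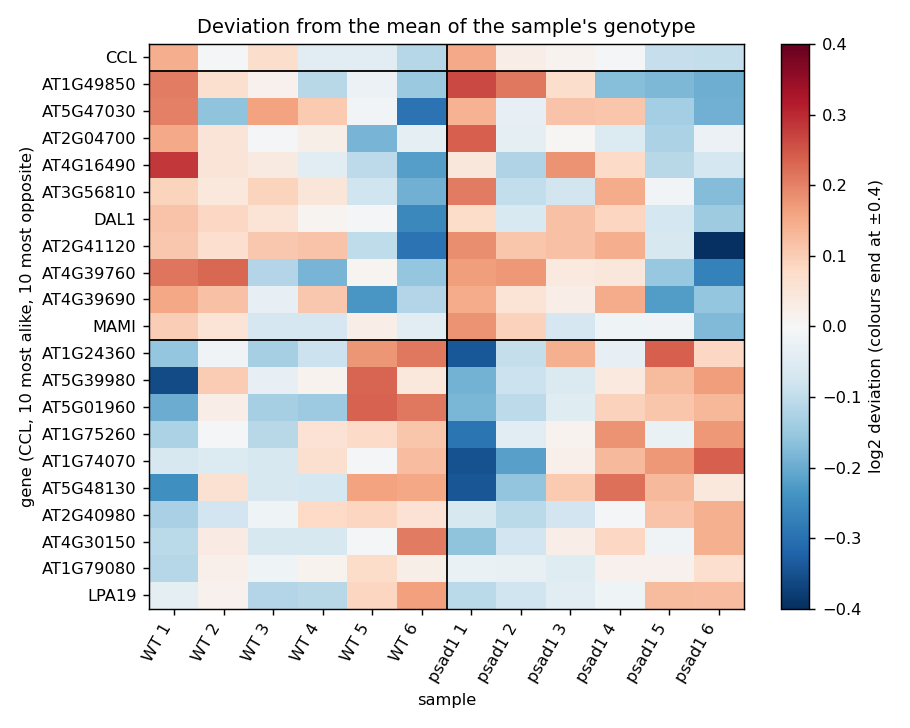
Log2 deviation of each sample (columns) from the mean of its genotype, for CCL (top row), the 10 most alike and the 10 most opposite genes (rows). Red is above and blue below the genotype mean, and the first sample of each genotype is red for CCL and the 10 alike genes and blue for the 10 opposite genes.

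Which genes ranked closest to CCL depended on how likeness was measured. Of the 10 most alike, 5 stayed among the 10 with Spearman's rho, 5 over set averages, 7 after median centring, 2 after the position correction and 1 after quantile normalization. Over differences within sets 1 stayed, and in WT and psad1 taken alone 2 and 3 did. Of the 10 most opposite, 6 stayed with rho, 5 after quantile normalization, 3 after the position correction and 3 after median centring. Over set averages 2 of these opposite genes stayed and over differences within sets 0. In WT alone 2 stayed, and in psad1 alone 1. After quantile normalization the r of the alike genes ran from 0.292 to 0.714, with a median of 0.435. After median centring AT1G79080 had r = 0.0325, no longer opposite.

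The 10 most alike and 10 most opposite genes were then compared between genotypes. By limma on set averages, 0 of the 10 alike and 0 of the 10 opposite genes passed, where 0.874% of all tested probes passed in either direction. Just outside these 20, AT1G06730, a gene for a pfkB-type carbohydrate kinase, ranked 13 of 595 in likeness (r = 0.661) and rose in psad1 by 0.63 on the log2 scale (SE 0.11, adjusted p 0.0282). AT4G32060, for the mitochondrial calcium uptake protein MICU, ranked 19 (r = 0.588) and rose by 0.50 (SE 0.10, adjusted p 0.0479). At an unadjusted threshold of 0.05, 1 alike gene was higher and 1 opposite gene lower in psad1, against 14.9% of all tested probes. On 12 samples 1 alike gene rose (AT4G39690, adjusted p 0.000769) and 2 opposite genes fell (AT1G75260, 0.0232, and AT4G30150, 0.0408), where 15.8% of all tested probes passed. The median log2 difference was 0.0037 for the alike genes, −0.11 for the opposite genes and −0.02 for all tested probes. AT4G39690 measured 1.57 to 2.05 in WT (median 1.90) and 2.30 to 2.98 in psad1 (median 2.76), a log2 difference of 0.54 (SE 0.13), opposite in direction to that of CCL, with an adjusted p of 0.0789 on set averages. Genes that follow CCL share its samples and part of its variation between them, whatever the source, so their differences are no separate evidence on CCL.

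Few genes tied to CCL by function could be traced to a probe of their own. Of 94 genes in 6 lists, 4 had one and 2 more lay on probes with several genes. The lists cover FNR with its membrane anchors, ferredoxins and ferredoxin-thioredoxin reductase, the core clock, clock outputs, cytoplasmic mRNA decay, green leaf markers, and root and seed markers. None of the 19 clock output and 26 mRNA decay genes was measured in this sense, so transcripts that share the clock or decay pathway of CCL were not analysed here. AT2G04700, for a subunit of ferredoxin-thioredoxin reductase, was the measured gene of 8 in the ferredoxin list. No listed gene for FNR, its membrane anchors or ferredoxin had a probe of its own. AT2G04700 stood at 0.587 ± 0.0425 (SD, n = 3) in WT and 0.607 ± 0.0398 in psad1, with an adjusted p of 0.852.

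Of the 21 core clock genes AT5G52660 was measured, known as RVE6, a MYB-like transcription factor that activates evening-phased genes. Its intensity was 0.224 to 0.278 in WT (median 0.242) and 0.185 to 0.256 in psad1 (median 0.231), between 1.14 and 1.36 times the floor at its lowest. The groups overlapped, its adjusted p was 0.687 on set averages, and its r with CCL was −0.221. The green leaf list was represented by SBPASE and PRK, both of the Calvin cycle, and both were above the floor in all 12 samples. None of the 10 root and seed markers was measured. PRK ran from 0.773 to 0.902 in WT and from 0.560 to 0.643 in psad1, with no overlap, and its r with CCL was −0.0806. Its log2 difference was −0.42 (SE 0.10), with an adjusted p of 0.0797 on set averages and 0.000373 on 12 samples. SBPASE stood at 0.720 ± 0.0671 and 0.721 ± 0.0738. Over the 4 listed genes 0 passed on set averages, 1 was past an unadjusted 0.05, and the median log2 difference was −0.05. Of all tested probes, 0.874% passed on set averages, 14.9% were past an unadjusted 0.05 and 15.8% passed on 12 samples. Every psad1 sample lay below every WT sample in 4.84% of them, as for PRK. The median log2 difference of all tested probes was −0.02.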

How the data were processed

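The deposited values were a single table of intensity per probe and sample. Since no value is negative and the distribution is skewed, they were read as intensities on a linear scale. The sources used here do not say how the authors scanned, background-corrected and scaled the arrays, and the table was used as deposited. Intensities below the 5th percentile of a sample's positive values were raised to it and log2 was taken. The 237 probes at this floor in all 12 samples were left out, which left 3202. Sets of 2 samples (1 and 2, 3 and 4, 5 and 6) were averaged and fitted with limma 3.58.1 in R 4.3.3 (2-sided tests, Benjamini-Hochberg adjustment over all 3202 probes, threshold 0.05). The fits were checked on simulated data with known changes. Levels of different probes were not compared.

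Gene names came from GEO's annotation of the platform, and 690 of 692 single-gene probes matched the TAIR10.1 gene table. CCL, the sets and the gene lists were chosen with earlier results of these data known. Named genes were CCL, the 10 single-gene probes with the highest and the 10 with the lowest Pearson r with CCL, and all measured genes of the lists. AT3G26730 and AT3G26630 beside CCL, and AT4G18180, CSLA01, AT2G11270, AT5G05330, AT1G06730 and AT4G32060, were named after their values were seen. Alternatives covered 12 samples, blocks, quantile normalization, median centring, other floors and filters, a position correction and each set left out. One was chosen after seeing the data: leaving out the 2 samples with the widest CCL deviations. Figures were drawn with matplotlib 3.10.9.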

Additional observations from a re-analysis of the deposited data

Results flagged for a closer look

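Of 52 groups of 6 samples examined for the genes described here, 2 held a sample far from the others of its genotype. The cut marks about 1 in 20 groups by chance where samples are independent and genes unselected. Here samples form sets and most genes were chosen by their deviations, so the count cannot be judged against that rate. AT2G04700 was at 0.715 in psad1 sample 1, against 0.555 to 0.607 in the other psad1 samples. DAL1 was at 0.264 in WT sample 6, against 0.314 to 0.341 in the other WT samples. Neither CCL group held such a sample.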

How the results depend on the processing

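The log2 difference of CCL stayed between −0.75 and −0.64 in all 17 alternatives to the fit, each within 0.08 of −0.71, the SD of its set averages. The fits on 12 samples, the blocks, the other floor and the filters on probes cannot change it. Their value of −0.71 is therefore no sign of stability. The other settings reuse the samples on which CCL was picked. Its rank by size, 2 in most, was 1 with an offset replacing the floor and with the position correction, and 1 to 4 with a set left out. Its rank by t was 1 except without psad1 set 2, where it was 2 (range 1 to 2 with a set left out). Against 28 probes past the threshold on set averages, 505 passed on 12 samples, 84 with sets as a random block, 46 with the floor at the 10th percentile, 63 with the offset, 48 with probes above the floor in every sample, 51 with no filter, 59 with the position correction, and 9 (without psad1 set 2) to 53 (without psad1 set 3) with a set left out. Leaving out WT set 1, 2 or 3 gave 11, 14 and 17, and psad1 set 1 gave 14. With the replicate number as a replicate block 761 passed on 12 samples, and 27 on set averages by set number. Sample numbers were not treated as pairs, since the labels name nothing that a number shares and numbers 5 and 6 did not exceed the 0.1 asked of every pair (0.0996 and 0.00805). As a hint towards pairing, 4 of 6 did, and for 8 of 12 samples the best match in the other genotype had the same number.

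Of the 20 alike and opposite genes, 0 passed on set averages, 3 on 12 samples, 6 with the replicate block, and 1 (AT4G39690) with sets as a random block, with the offset, with the position correction and without psad1 set 3 (0 to 1 over sets left out). Of all 3202 tested probes, 0.874% passed on set averages and 15.8% on 12 samples. With the replicate block 761 of 3202 did, with sets as a random block 84, with the offset 63, with the position correction 59 and without psad1 set 3 53. Of the listed genes 1, PRK, passed on 12 samples, on 12 samples with the replicate block, with sets as a random block and with the position correction. The alike and opposite genes were chosen for extreme r in these same samples, so the sign of r was largely fixed in advance. Of 300 values of r under alternatives, 298 kept their sign, which is no support for the likeness. The exceptions were AT1G79080 after median centring (0.0325) and AT4G39690 over differences within sets (−0.149). Signal near the floor limits AT5G47030, AT3G56810, AT1G24360 and AT5G52660. The causes of these changes were not tested.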
